A study of Arabidopsis thaliana with 6 samples.

Results

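Cyclins, cyclin-dependent kinases (CDKs) and CDK inhibitors form the core engine of the plant cell cycle, and 68 genes of Arabidopsis thaliana carrying these names were followed in flower buds. They are the genes of the deposited count table whose name begins with CYCA, CYCB, CYCD, CYCH, CYCL, CYCP, CYCT, CYCU, CDK, KRP or SMR and whose description holds the word cyclin, out of 33037 features in all. The meiotic cyclins TAM and SDS were set aside. The rule itself reads names and descriptions and no measured value. It holds 37 cyclins, 9 CDKs and 22 inhibitors, with 9 D-type, 7 A-type, 9 B-type, 5 L- or T-type and 7 U-type cyclins, 7 KRP and 15 SMR inhibitors. A further 10 cell cycle genes match the name pattern but have a description without that word, among them CYCD3-3, CYCA1-1 and CDKB2-1; they are given once below.

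RNA from closed buds was sequenced in 3 wild-type libraries and 3 libraries labelled as naa50-1, described by the submitters as biological replicates; no agent was applied and no plant age is given. NAA50 encodes a protein that acetylates the amino ends of other proteins, and the labels do not describe the lesion of the naa50-1 allele. FPKM values here are counts scaled to gene length and to a median-of-ratios size factor of each library. The transcript of NAA50 itself stood at 25.9 ± 2.35 FPKM (SD, n = 3) in the wild type and at 2641 ± 291 FPKM in the naa50-1-labelled libraries. That is a rise, so every direction below belongs to the labels as given. The libraries held 19727584 to 20813563 counts each. All 8 flower organ markers examined, such as AP1, AP3 and AG, were present in every library, with a summed level of 826 to 1094 FPKM in the wild type and 1008 to 1272 FPKM in the naa50-1-labelled libraries, and none passed the test. Whole buds mix many cell types, so fewer cells of a type and less RNA per cell cannot be told apart.

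A CDK is active only when bound to a cyclin. In plants, D-type cyclins with CDKA promote entry into DNA synthesis by acting on the retinoblastoma-related repressor, A-type cyclins act around DNA synthesis and later, and B-type cyclins with CDKA and the plant-specific CDKB kinases drive mitosis. The KRP proteins and the SIAMESE-related SMR proteins bind the kinase complexes and restrain them. Many B-type cyclin genes carry the mitosis-specific activator element in their promoters, through which MYB3R factors switch them on late in the cycle, and the factor SOG1 switches on SMR5 and SMR7 after DNA damage.

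Enough counts for a test were present for 61 members, and edgeR's quasi-likelihood test at an adjusted p of 0.05 called 4 of them (6.56%), while 9.53% of all 21196 genes tested did. CYCD7-1 and SMR12 fell, and SMR7 and CYCB2-1 rose. Lower calls made up 5.59% of all genes and higher calls 3.94%. The share of members called was thus near and below that of the table as a whole. The authors' deposited table called the same 4 members in the same directions at its own adjusted p under 0.05, where 9.31% of its 26574 genes with a value were called. It gave them, in that order, log2 fold changes of -5.43, -2.33, 2.81 and 0.68. The promoters of these 4 genes are shown because they are the members that differed. Each is the 250 bases before the annotated start, read 5′ to 3′ on the gene's strand in the RefSeq TAIR10.1 assembly. Capitals mark every match, on either strand, to AACGG (the core of the mitosis-specific activator element), to the E2F sites TTTCCCGC and TTTGGCGC, or to CTTNNNNNNNAAG, the motif of SOG1.
CYCD7-1, chr5:416667-416916, plus strand: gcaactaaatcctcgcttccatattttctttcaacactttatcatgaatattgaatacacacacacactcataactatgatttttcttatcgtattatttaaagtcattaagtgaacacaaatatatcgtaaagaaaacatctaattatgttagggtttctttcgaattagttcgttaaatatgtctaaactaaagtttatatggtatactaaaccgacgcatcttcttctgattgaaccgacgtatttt
SMR12, chr2:15777674-15777923, minus strand: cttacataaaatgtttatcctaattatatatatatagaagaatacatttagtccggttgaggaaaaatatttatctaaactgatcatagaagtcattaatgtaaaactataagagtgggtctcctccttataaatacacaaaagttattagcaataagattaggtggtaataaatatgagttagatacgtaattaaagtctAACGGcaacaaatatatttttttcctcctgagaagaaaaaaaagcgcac
SMR7, chr3:10231568-10231817, minus strand: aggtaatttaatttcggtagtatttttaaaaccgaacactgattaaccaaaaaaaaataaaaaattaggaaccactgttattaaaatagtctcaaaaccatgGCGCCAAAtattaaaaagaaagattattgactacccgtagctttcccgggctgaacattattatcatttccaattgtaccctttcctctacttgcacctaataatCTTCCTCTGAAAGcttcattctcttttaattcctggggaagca
CYCB2-1, chr2:7663805-7664054, plus strand: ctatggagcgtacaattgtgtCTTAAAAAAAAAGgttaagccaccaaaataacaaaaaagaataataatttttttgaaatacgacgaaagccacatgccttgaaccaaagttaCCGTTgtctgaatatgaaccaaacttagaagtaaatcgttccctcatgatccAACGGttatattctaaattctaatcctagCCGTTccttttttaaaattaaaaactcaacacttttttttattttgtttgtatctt
None of these 4 windows overlaps another gene of the table. The CYCD7-1 window held no match. The SMR12 window held 1 AACGG, the SMR7 window 1 TTTGGCGC (as its reverse complement, 148 bases before the start) and 1 SOG1 motif beginning 43 bases before the start. The CYCB2-1 window held 3 copies of AACGG and 1 SOG1 motif. In windows of the same length before all 27419 protein-coding genes, AACGG was found in 20.6%, TTTGGCGC in 0.361%, TTTCCCGC in 0.616% and the SOG1 motif in 9.71%. A match describes letters and is not evidence of binding.

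**Figure D1:**
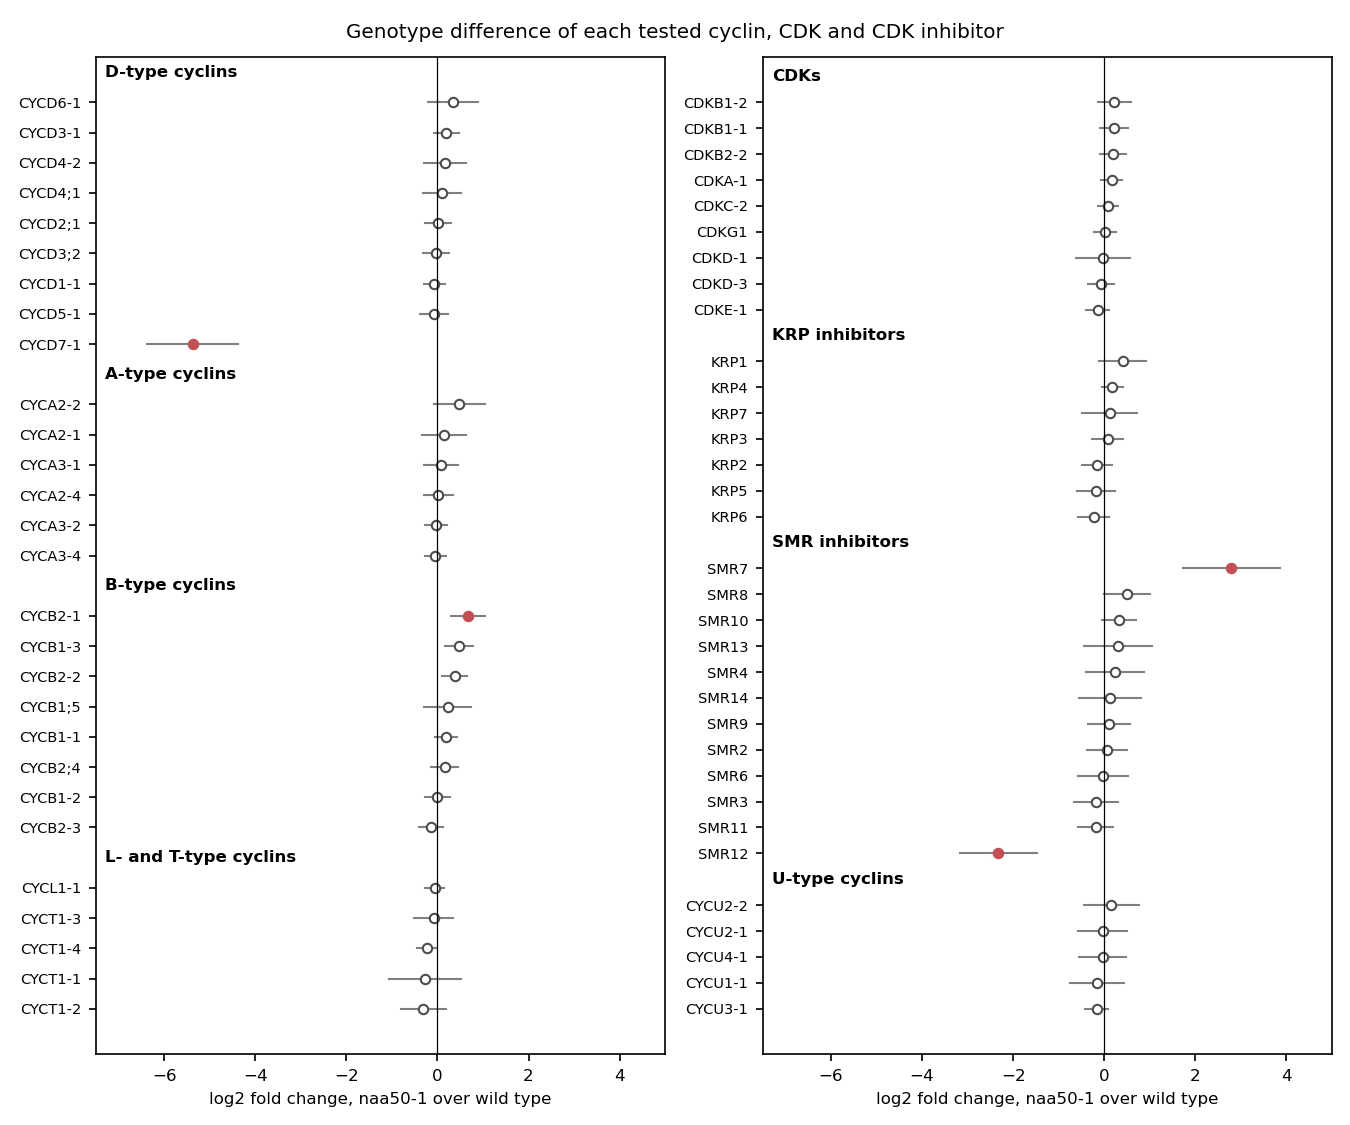
Log2 fold change (x axis, naa50-1-labelled libraries over wild type) of each of the 61 tested members, grouped by class, with bars for the 95% interval of the fit; filled red points passed an adjusted p of 0.05 in edgeR and open points did not. CYCD7-1, SMR12 and SMR7 stand far from 0, and 57 of 61 members lie within 0.5 of it.

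D-type cyclins are the sensors of growth signals at the start of the cycle. All 9 were tested and only CYCD7-1 passed. CYCD7-1 (AT5G02110, chromosome 5, 416917 to 418666, plus strand) is known for the last division of the stomatal lineage, the split of the guard mother cell. It had 71, 140 and 86 counts in wild type replicates 1 to 3 and 2, 3 and 2 counts in the naa50-1-labelled libraries. The corresponding FPKM values were 2.72, 5.15 and 3.34 against 0.0761, 0.108 and 0.0742. Every wild-type library lay far above every naa50-1-labelled library. The mean fell from 3.73 ± 1.26 to 0.0861 ± 0.0190 FPKM (SD, n = 3 each), a change of -5.37 on the log2 scale (edgeR, SE 0.44, adjusted p = 3.79e-05). The ratio of counts was 43.4 with an exact interval of 20.8 to 109, which covers counting error only.

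The other 8 D-type cyclins showed no such loss. CYCD3;2, which like the rest of its subgroup responds to cytokinin and keeps organ cells dividing, was the highest of all 68 members. It stood at 46.1, 57.5 and 41.4 FPKM in the wild type and 49.3, 47.6 and 46.1 FPKM in the naa50-1-labelled libraries, and the groups overlapped (log2 fold change -0.03, 95% interval -0.31 to 0.26). It overlaps AT5G67265 on the opposite strand over 220 bases. CYCD3-1 was at 23.9 ± 3.72 and 27.5 ± 1.42 FPKM, and CYCD1-1, which acts early in the re-entry of resting cells into the cycle, at 40.1 ± 3.28 and 38.4 ± 1.90 FPKM. Neither passed the test. CYCD6-1, known for formative divisions of the root ground tissue, had the highest positive value of the class at a log2 fold change of 0.34 (adjusted p = 0.533, edgeR); it overlaps AT4G03260 on the opposite strand over 847 bases. The summed level of the class was 143 ± 17.0 FPKM in the wild type and 141 ± 1.45 FPKM in the naa50-1-labelled libraries.

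The A-type cyclins gave no call. CYCA3-4, the highest of them, was at 17.8 ± 0.754 FPKM in the wild type and 17.3 ± 0.917 FPKM in the naa50-1-labelled libraries (log2 fold change -0.04, 95% interval -0.27 to 0.18). Its neighbours in a row on chromosome 1 stood at very different levels: CYCA3-2 had 14.9 ± 1.18 and 14.6 ± 0.765 FPKM, and CYCA3-3, between them, had 0 wild-type counts and 4 in the naa50-1-labelled libraries together, too few to be tested. CYCA2-2 had the smallest p of the class. It read 2.89, 2.91 and 2.46 FPKM in the wild type and 2.49, 4.71 and 4.40 FPKM in the naa50-1-labelled libraries, so that replicate 1 of the latter lay among the wild-type values (log2 fold change 0.49, adjusted p = 0.352, edgeR).

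B-type cyclins, the mitotic partners, held the smallest of the 4 calls. CYCB2-1 (AT2G17620, chromosome 2, 7664055 to 7666522, plus strand) was at 3.62, 3.80 and 3.19 FPKM in the wild type and at 6.12, 5.43 and 5.41 FPKM in the naa50-1-labelled libraries. The groups did not overlap, and the mean rose 1.60-fold, from 3.53 ± 0.315 to 5.65 ± 0.408 FPKM (log2 fold change 0.67, SE 0.17, adjusted p = 0.0313, edgeR). Leaving out replicate 1 or 3 of the wild type, or any 1 of the 3 naa50-1-labelled libraries, ended it (edgeR, adjusted p = 0.0712 to 0.117) at log2 fold changes of 0.60 to 0.70. Without replicate 2 of the wild type it held (adjusted p = 0.0394, edgeR).

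CYCB1-3 and CYCB2-2 came next in the class and missed the threshold. CYCB1-3 had 6.87, 6.80 and 6.14 FPKM in the wild type and 10.2, 8.60 and 8.85 FPKM in the naa50-1-labelled libraries (log2 fold change 0.48, adjusted p = 0.0629, edgeR). CYCB2-2 had 9.49, 9.003 and 7.997 FPKM against 11.0, 11.4 and 12.3 FPKM (log2 fold change 0.38, adjusted p = 0.0962, edgeR). In both genes the 2 groups did not overlap. CYCB1-1, a cyclin of dividing cells that is also known to rise with DNA damage, likewise had groups without overlap at 15.8 ± 0.672 and 18.2 ± 1.76 FPKM (log2 fold change 0.20, adjusted p = 0.387, edgeR). Non-overlapping groups, all higher in the naa50-1-labelled libraries, were thus seen in 4 of 8 tested B-type cyclins; over all genes 11.9% had groups that did not overlap in this direction.

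The B-type cyclin with the highest level did not follow. CYCB1-2 was at 39.0, 36.8 and 30.7 FPKM in the wild type and at 32.4, 40.5 and 33.8 FPKM in the naa50-1-labelled libraries (log2 fold change -0.0030, adjusted p = 0.995, edgeR). CYCB2-3 read 10.9 ± 0.0995 and 9.86 ± 1.07 FPKM. CYCB1-2 shares a near-identical stretch with CYCB1;5, and CYCB2-3 with its neighbour CYCB2-5, so reads of each pair may be divided between them. Over the 8 tested members of the class the median log2 fold change was 0.21, against -0.01 over all genes. Of these 8 members 6 were positive, beside 48.4% of all genes. That count was 7 with scaling by median-of-ratios or by library totals, under which CYCB1-2 turned positive. The summed level of the class was 98.2, 98.9 and 85.5 FPKM in the wild type and 99.8, 113 and 101 FPKM in the naa50-1-labelled libraries. AACGG, the element core, was found before 6 of the 9 B-type cyclin genes (66.7%), beside 20.6% of all protein-coding genes. Its presence did not follow the sign of the change. CYCB2-1, CYCB1-3, CYCB2-2 and CYCB1-1 carried it, but so did CYCB1-2 and CYCB2-3, whose log2 fold changes were negative. CYCB2;4 and CYCB1;5, at log2 fold changes of 0.16 and 0.23, carried none.

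**Figure D2:**
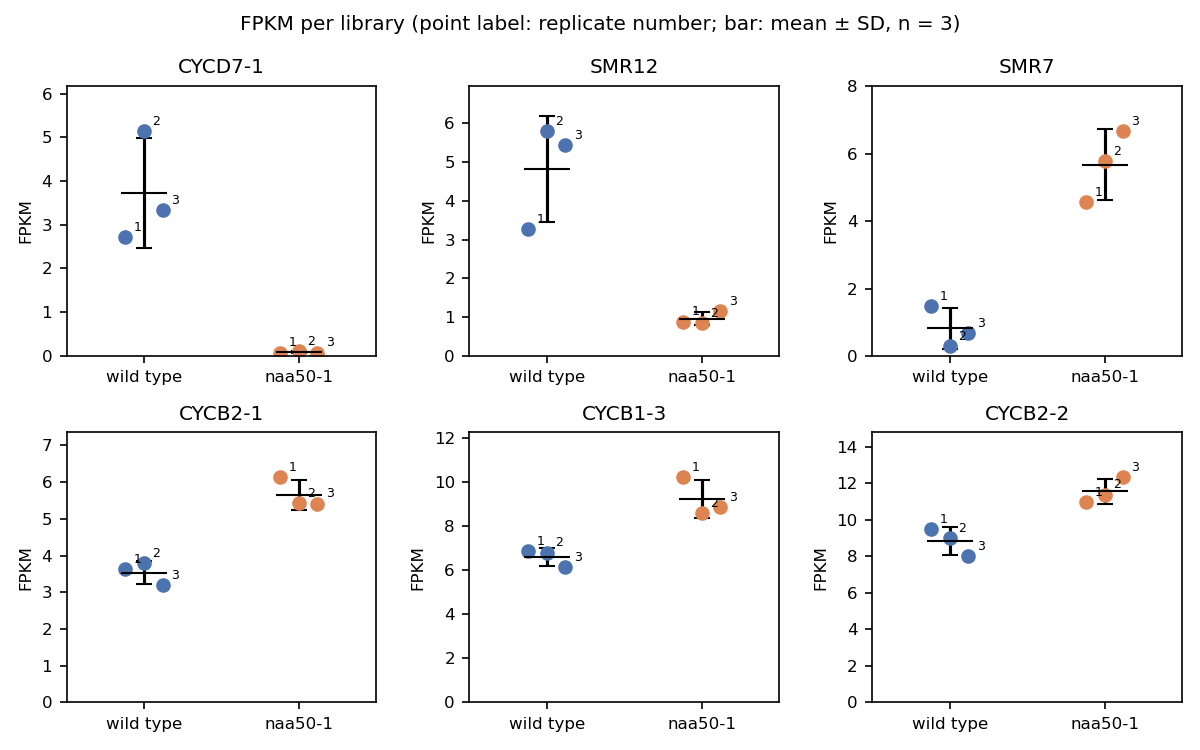
FPKM (y axis, from 0) in each library of the 4 members that passed the test and of CYCB1-3 and CYCB2-2, which did not; points carry the replicate number, and the bars give the mean ± SD of 3 libraries. The genotypes do not overlap in any of the 6 panels, and the gap is widest for CYCD7-1 and narrow for the B-type cyclins.

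None of the 9 CDKs passed the test. CDKA-1, the central kinase that pairs with D-, A- and B-type cyclins, was at 35.1, 29.9 and 35.1 FPKM in the wild type and at 38.4, 39.0 and 35.0 FPKM in the naa50-1-labelled libraries. The groups overlapped (log2 fold change 0.16, 95% interval -0.06 to 0.39, adjusted p = 0.454, edgeR). The 3 mitotic kinases had nearly equal small positive values: CDKB1-1, CDKB1-2 and CDKB2-2 had log2 fold changes of 0.22, 0.22 and 0.20, with adjusted p from 0.467 to 0.533 (edgeR), and all 3 overlap a gene on the opposite strand. CDKC-2, which acts on RNA polymerase II rather than on the cycle, was at 31.7 ± 2.39 and 33.8 ± 1.88 FPKM. CDKD-1 and CDKD-3, kinases that activate other CDKs, had log2 fold changes of -0.03 and -0.07, and CDKE-1, a kinase of the Mediator complex, -0.14. CDKG1, known for splicing and for chromosome pairing in meiosis, was at 27.2 ± 2.60 and 27.4 ± 1.52 FPKM. The 95% interval lay within a 2-fold change in either direction for all 9, and within a 1.5-fold change for 7.

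The KRP inhibitors gave no call either. KRP2, known for restraining the founding divisions of lateral roots, was the second highest member at 38.3, 48.0 and 56.0 FPKM in the wild type and 43.8, 36.9 and 47.0 FPKM in the naa50-1-labelled libraries. These values overlapped widely (log2 fold change -0.16, 95% interval -0.50 to 0.18). KRP1 had the smallest p, with 5.76, 5.28 and 6.97 FPKM against 10.4, 5.86 and 7.64 FPKM, where replicate 1 of the naa50-1-labelled libraries was high and replicate 2 lay within the wild-type range (log2 fold change 0.40, adjusted p = 0.407, edgeR). KRP6 and KRP7, which are cleared from the male germ line so that it can divide, had log2 fold changes of -0.23 and 0.12. All 7 intervals lay within a 2-fold change.

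The SMR inhibitors held both a large rise and a large fall. SMR7 (AT3G27630, chromosome 3, 10230892 to 10231567, minus strand) is induced by DNA damage and oxidative stress and arrests the cycle. It had 20, 4 and 9 counts in wild type replicates 1 to 3 and 62, 83 and 93 counts in the naa50-1-labelled libraries, or 1.48, 0.285 and 0.677 FPKM against 4.57, 5.79 and 6.68 FPKM. Every naa50-1-labelled library stood above every wild-type library, while the wild-type libraries differed widely among themselves. The mean rose 6.97-fold, from 0.815 ± 0.610 to 5.68 ± 1.06 FPKM (log2 fold change 2.79, SE 0.47, adjusted p = 0.00368, edgeR). Without wild type replicate 1, the highest of its group, the log2 fold change was 3.54, and the call held with each library left out.

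SMR12 (AT2G37610, chromosome 2, 15776849 to 15777673, minus strand) had 33, 61 and 54 wild-type counts and 9, 9 and 12 counts in the naa50-1-labelled libraries. In FPKM these were 3.27, 5.80 and 5.43 against 0.886, 0.839 and 1.15, with no overlap. The mean fell 5.04-fold, from 4.83 ± 1.37 to 0.959 ± 0.168 FPKM (log2 fold change -2.33, SE 0.37, adjusted p = 0.00273, edgeR). Neither SMR7, SMR12, CYCD7-1 nor CYCB2-1 overlaps another gene or has a near-identical copy (95% identity over 100 bases) in the annotation.

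Among the other SMR genes no further call was made. SMR11, with the highest mean of the SMR genes over all 6 libraries (7.94 FPKM), was at 8.45 ± 1.22 and 7.43 ± 0.364 FPKM. SMR8 and SMR10 had groups without overlap, in that order at 3.51 ± 0.488 and 4.97 ± 0.367 FPKM and at 7.002 ± 0.372 and 8.78 ± 0.708 FPKM (adjusted p = 0.264 and 0.337, edgeR). Of all genes tested, 11.9% had groups without overlap in this direction. SMR4, another inhibitor linked to DNA damage, was at 2.34 ± 0.335 and 2.77 ± 0.414 FPKM (log2 fold change 0.24, adjusted p = 0.754, edgeR). SMR5, the usual partner of SMR7 in that response, was listed at 0 in all 6 libraries; its annotated 266 bases lie wholly inside FTSH10 on the opposite strand, so reads there cannot be assigned with certainty. The summed level of the 15 SMR genes was 54.6 ± 4.53 FPKM in the wild type and 58.3 ± 2.10 FPKM in the naa50-1-labelled libraries.

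Cyclins outside the cycle proper gave no call. The L- and T-type cyclins, which pair with kinases of transcription and splicing, had negative log2 fold changes in 5 of 5 genes, from -0.31 to -0.06. Over all genes tested 48.4% were positive. CYCT1-4 had the smallest p, with 20.1, 21.7 and 18.0 FPKM in the wild type and 17.1, 17.7 and 16.4 FPKM in the naa50-1-labelled libraries, groups without overlap (log2 fold change -0.23, adjusted p = 0.258, edgeR). Of all genes tested, 13.0% had groups without overlap in this direction. CYCL1-1, the highest of the L- and T-type cyclins, was at 23.1 ± 0.514 and 22.2 ± 1.06 FPKM. CYCT1-3 showed 1 library apart, with 9.99 FPKM in naa50-1 replicate 1 against 15.5 to 18.3 FPKM in the other 5. The U-type cyclins, relatives of the yeast phosphate-signalling cyclin Pho80, were led by CYCU3-1 at 21.0 ± 0.282 and 18.7 ± 2.67 FPKM (log2 fold change -0.17, adjusted p = 0.514, edgeR). CYCU4-1 ran from 10.04 to 16.4 FPKM in the wild type and from 9.88 to 17.4 FPKM in the naa50-1-labelled libraries, with replicate 2 the lowest of each group.

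A set of 7 names had too few counts for a test: SMR5, SMR15, SMR16, CYCA3-3, CYCB2-5, CYCU4-2 and CYCU4-3. SMR16 was the highest of them, with 28 wild-type counts and 25 in the naa50-1-labelled libraries, and the others had at most 5 counts in either group.

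Taken per length, 10 of the 68 members had a mean above 20 FPKM, 51 were between 1 and 20 FPKM and 7 were under 1 FPKM. The order began with CYCD3;2, KRP2, CYCD1-1, CYCB1-2, CDKA-1, CDKC-2 and CDKG1, with means over all 6 libraries of 48.0, 45.0, 39.3, 35.5, 35.4, 32.7 and 27.3 FPKM. The library ranges of neighbours overlapped in 65 of 67 adjacent pairs, so only distant ranks are separated. CYCD7-1, SMR7 and SMR12 belong to the low end of this order, with no library above 7 FPKM. The summed level of all 68 members was 696 to 750 FPKM in the wild type and 721 to 739 FPKM in the naa50-1-labelled libraries.

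**Figure D3:**
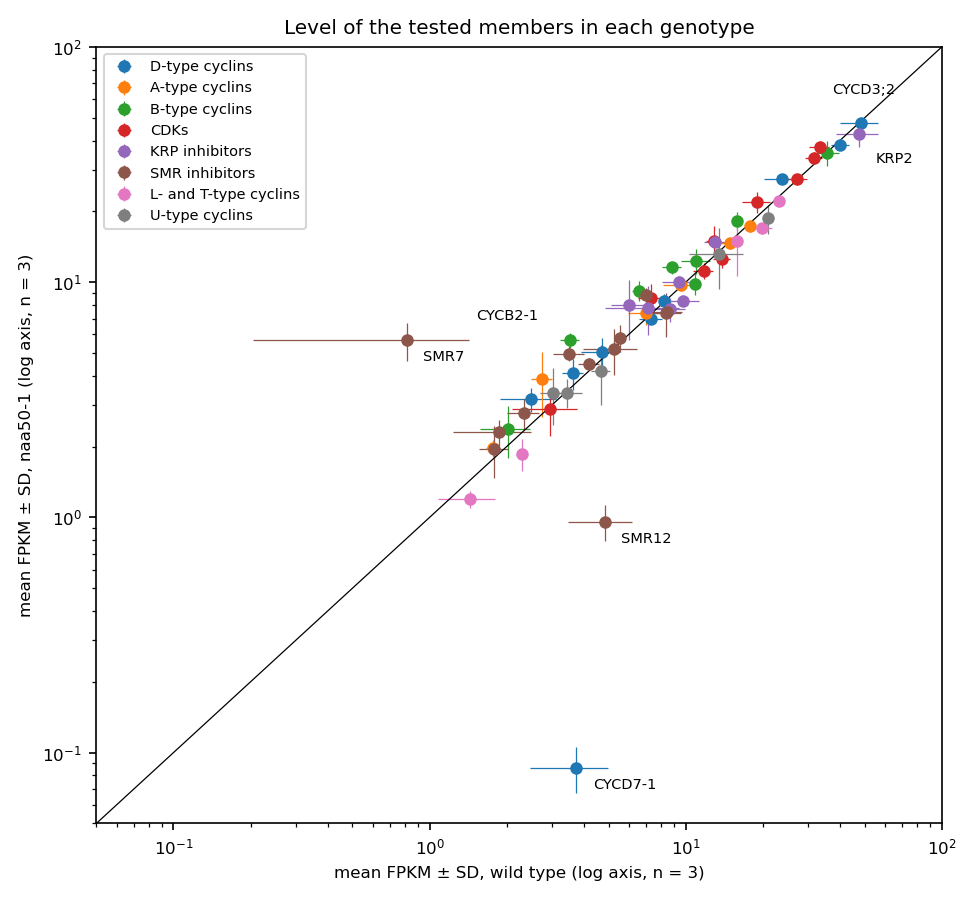
Mean FPKM ± SD of each tested member in the wild type (x axis) and in the naa50-1-labelled libraries (y axis), both on log axes, coloured by class, with the line of equality. CYCD7-1 and SMR12 lie below the line and SMR7 above it, while the abundant members such as CYCD3;2 and KRP2 lie close to it.

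Taking the tested members as a set, the interquartile range of their log2 fold changes ran from -0.08 to 0.20, and 34 of 61 were positive, against 48.4% of all genes. Groups without overlap were found in 11 of 61 members, 7 higher and 4 lower, where 24.9% of all genes had them. Unadjusted p-values under 0.05 were found in 7 members, where 19.2% of all genes had them. For 35 members the 95% interval of the genotype difference lay within a 1.5-fold change in either direction (56.5% of all genes), and for 54 within 2-fold. For the remaining members a change of that size was not excluded by the spread. The 10 genes with the name pattern but without the word cyclin in the description gave no call, and their log2 fold changes ran from -0.12 to 0.30. Among them CDKB2-1 was at 36.2 ± 1.43 and 38.4 ± 3.26 FPKM, CYCD3-3 at 37.0 ± 3.65 and 40.0 ± 3.96 FPKM and CYCA1-1 at 16.9 ± 1.37 and 18.6 ± 0.457 FPKM.

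Other genes of the cell cycle were read from 8 lists of 63 genes in all, each of them tested. A total of 3 passed, all higher and all from the DNA damage list, or 4.76% of the 63, beside 9.53% of all genes tested in either direction and 3.94% higher. The retinoblastoma-related repressor RBR1 and the E2F and DP factors that it controls gave 0 calls among 9 genes (smallest p: DPB, log2 fold change 0.13, adjusted p = 0.606, edgeR). Nor did any of the 4 MYB3R factors pass, although the activator MYB3R4 read 10.9, 9.75 and 8.40 FPKM in the wild type and 11.7, 12.8 and 10.5 FPKM in the naa50-1-labelled libraries (log2 fold change 0.26, adjusted p = 0.275, edgeR). WEE1, an inhibitory kinase, and the CDK subunits CKS1 and CKS2 gave no call (CKS2, log2 fold change 0.22, adjusted p = 0.412, edgeR). Among 14 genes of the anaphase-promoting complex, which destroys mitotic cyclins, and its regulators, FZR2, the activator also called CCS52A1, had the smallest p (log2 fold change -0.23, adjusted p = 0.412, edgeR). Of 3 F-box proteins that target cell cycle proteins, SKP2A had the smallest (log2 fold change -0.11, adjusted p = 0.727, edgeR).

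Replication and mitosis genes gave no call. Of 13 DNA replication genes 12 had a negative log2 fold change, with a median of -0.14, and all 6 subunits of the MCM helicase, MCM2 to MCM7, were among them. The 13 genes summed to 287, 263 and 240 FPKM in the wild type and 236, 260 and 221 FPKM in the naa50-1-labelled libraries. The 6 MCM genes summed to 172, 157 and 138 FPKM against 139, 152 and 128 FPKM. Both sums overlapped between the groups. MCM5, with the smallest p, was at 32.6, 32.9 and 28.2 FPKM in the wild type and at 26.4, 27.1 and 22.2 FPKM in the naa50-1-labelled libraries (log2 fold change -0.31, adjusted p = 0.145, edgeR). Without wild type replicate 1, 5 of 6 MCM genes and 10 of 13 replication genes were negative. Of 9 mitosis and cytokinesis genes 8 were positive, with a median of 0.12. Over all genes tested 48.4% were positive, with a median of -0.01. The genes of a list were measured in the same 6 libraries, so their signs are not separate observations. KN, the cytokinesis syntaxin KNOLLE, read 44.3, 41.0 and 41.4 FPKM against 46.1, 55.9 and 50.5 FPKM (log2 fold change 0.26, adjusted p = 0.169, edgeR), and it overlaps VDE1. AACGG was found before 7 of these 9 genes (77.8%) and before 1 of the 13 replication genes (7.69%), whose windows held TTTCCCGC in 4 cases (30.8%). Over all protein-coding genes the shares were 20.6% for AACGG and 0.616% for TTTCCCGC.

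Genes of the DNA damage response were called higher in the naa50-1-labelled libraries in 3 of 8 cases, where 3.94% of all genes were called higher. All 8 had a positive log2 fold change, with a median of 0.40, where 48.4% of all genes were positive and the median was -0.01. The list was chosen with earlier results of these data known, so these shares are no independent test. The gene anac044, a NAC factor related to SOG1 and needed for arrest after damage, rose from 0.290, 0.363 and 0.265 FPKM to 2.77, 2.46 and 2.25 FPKM (log2 fold change 3.01, SE 0.30, adjusted p = 0.000119, edgeR). Its close relative anac085 had 3 counts in the wild type, all in replicate 1, and 79 in the naa50-1-labelled libraries, a ratio of 25.7 with an exact counting interval of 8.48 to 127 (adjusted p = 0.00334, edgeR); without wild type replicate 1 the wild type had no count and the fitted log2 fold change moved from 4.52 to 7.71, a value that depends on a prior count. PARP2, a poly(ADP-ribose) polymerase that marks broken DNA, rose from 4.56 ± 0.659 to 7.81 ± 0.645 FPKM (log2 fold change 0.77, SE 0.15, adjusted p = 0.00752, edgeR). The repair gene BRCA1 and XRI1, a gene induced by X-rays, did not pass, at log2 fold changes of 0.39 and 0.40 (adjusted p = 0.164 and 0.127, edgeR). SOG1 itself was at 9.62 ± 1.25 and 10.9 ± 1.23 FPKM (adjusted p = 0.583, edgeR). The SOG1 motif stood in the windows before 3 of these 8 genes (37.5%), beside 9.71% of all protein-coding genes. Among the cell cycle inhibitors only SMR7 was called higher. A link between its rise and the 3 calls of this list was not tested.

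**Figure D4:**
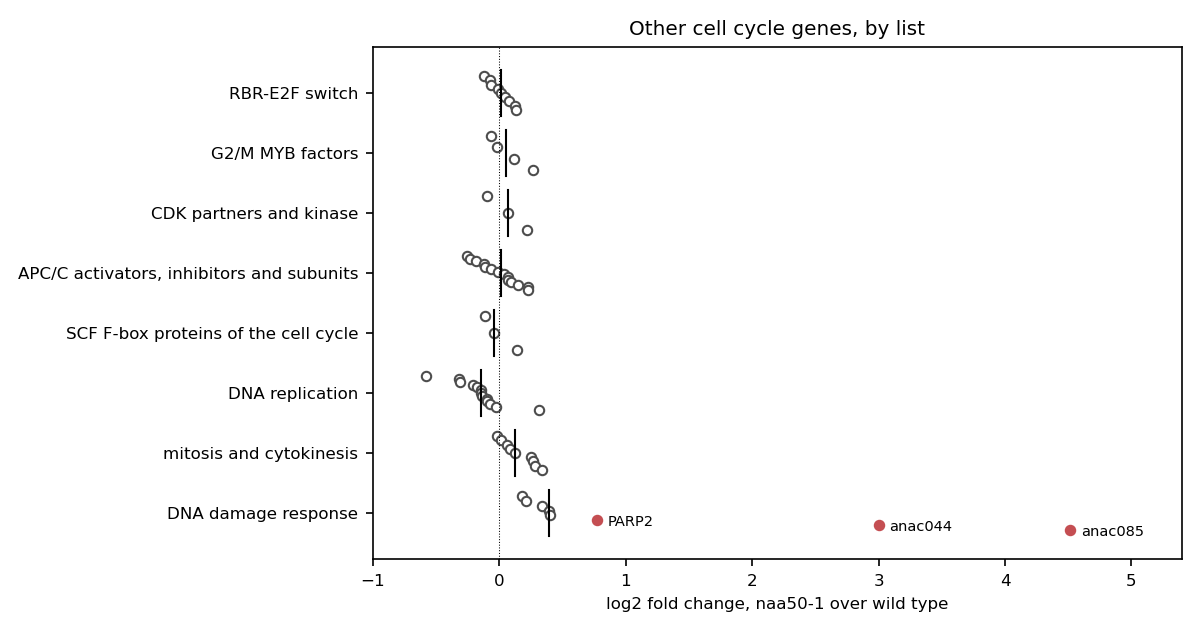
Log2 fold change (x axis, naa50-1-labelled libraries over wild type) of 63 other cell cycle genes in 8 lists; filled red points passed an adjusted p of 0.05 in edgeR, and the black bars are list medians. Only anac044, anac085 and PARP2 of the DNA damage list passed; the DNA replication list has a median of -0.14 and the mitosis list of 0.12.

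Markers of pollen were lower in the same libraries as the 2 members that fell. The summed level of 16 mature pollen genes was 483, 687 and 533 FPKM in wild type replicates 1 to 3. It was 9.65, 9.39 and 11.5 FPKM in the naa50-1-labelled libraries. Of the 16, 15 were called lower, where 5.59% of all genes tested were. ANX2, a receptor kinase of the pollen tube, had no count in any of the naa50-1-labelled libraries. Wild type replicate 2 was the highest of its group for the pollen sum, for CYCD7-1 and for SMR12, and replicate 1 was the lowest for all 3. This order was not particular to them. Among members not called, KRP6 (8.11, 11.0 and 10.2 FPKM) and KRP7 (4.61, 9.10 and 7.63 FPKM) had it too, while CDKA-1 did not. In the naa50-1-labelled libraries replicate 3 was the highest and replicate 2 the lowest for the pollen sum and for SMR12. CYCD7-1 had the reverse order there, on 2, 3 and 2 counts. Of 4 tested sperm and germ cell genes 3 were called lower. Their list summed to 8.46 to 11.5 FPKM in the wild type and 0.324 to 0.463 FPKM in the naa50-1-labelled libraries. The germ line genes MGH3, GEX3 and ZAT3 had no count in the naa50-1-labelled libraries. Of 12 meiocyte genes 3 were called lower (HEI10, SYN1 and ASY1), and in all 9 had a negative and 3 a positive log2 fold change. DMC1, the highest of them, was at 12.4 ± 1.23 and 15.9 ± 2.94 FPKM (log2 fold change 0.35, adjusted p = 0.252, edgeR). ASY3 was at 6.55 ± 0.359 and 6.76 ± 0.586 FPKM. The meiocyte list summed to 38.7 to 41.9 FPKM in the wild type and 34.2 to 39.0 FPKM in the naa50-1-labelled libraries, a sum to which DMC1 gave the most. Without wild type replicate 2 the log2 fold changes of CYCD7-1 and SMR12 were -5.06 and -2.17, and both passed. The part of pollen content in these 2 falls was not tested.

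**Figure D5:**
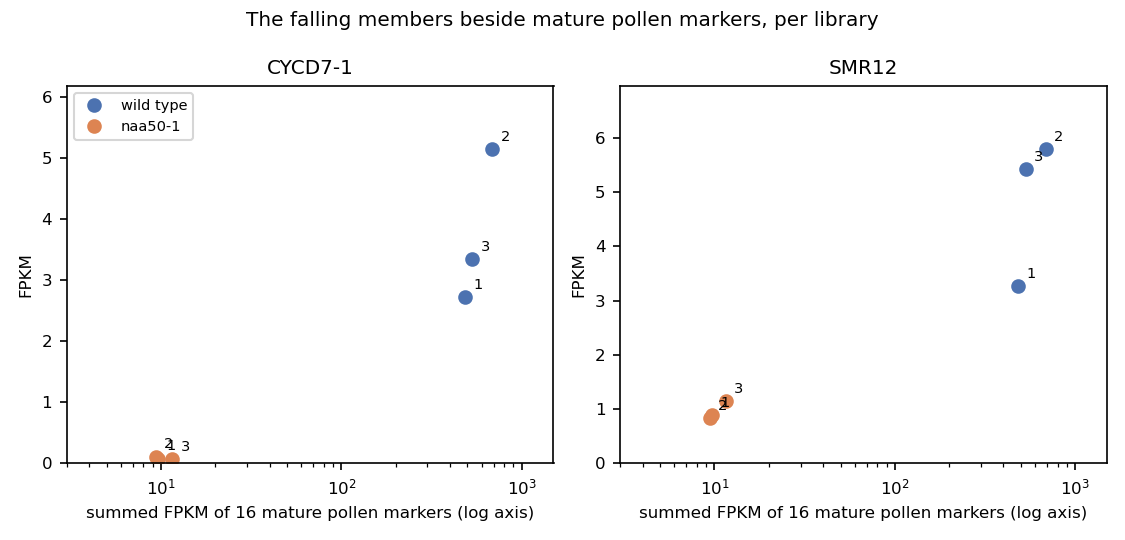
FPKM of CYCD7-1 (left) and SMR12 (right) in each of the 6 libraries (y axis) against the summed FPKM of 16 mature pollen markers in the same library (log x axis); labels are replicate numbers. The 3 wild-type libraries lie at 483 to 687 on the x axis and the 3 naa50-1-labelled libraries at 9.39 to 11.5, with both genes low in the latter.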

How the data were processed

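The submitters' processing notes name HISAT2 2.0.5 as the aligner of the closed-bud RNA and TAIR10 as the genome. For the counter, the annotation release and the strandedness, the sources used here give nothing. The authors deposited whole-number counts per gene. The authors' deposited FPKM values equalled counts divided by gene length and a median-of-ratios size factor, up to a constant. Their deposited comparison table gives log2 fold changes, p-values and adjusted p-values, and a normalized signal per group that was not used.

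Counts of 3 against 3 libraries were scaled by TMM, filtered by filterByExpr and tested with edgeR 4.0.16 (quasi-likelihood, genotype as the only covariate, R 4.3.3), with Benjamini-Hochberg adjustment over all 21196 genes. The SE is the absolute log2 fold change divided by the root of the F statistic. The 95% intervals use the total degrees of freedom of that test, not the residual ones alone. The p-values measure spread between these libraries only. The members and lists were chosen with earlier results of these data known. Named are all called members, the highest member and the smallest p of each class, called genes of the other lists or their smallest p; further members are given as values. Deposited bounds of all 68 members equalled TAIR10.1. Near copies were sought with blastn 2.17.0.

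On simulated counts (20796 genes) edgeR recovered 10.4% of genes changed 1.5-fold, 58.2% of those changed 2-fold and 95.5% of those changed 4-fold. Of its 121 calls 12 were false. The simulation changed only 67, 67 and 66 genes by these folds, all above a minimum wild-type level. In the data 2021 genes were called, so these rates need not hold for the real test. Alternatives used other scalings and filters, DESeq2 1.42.0, limma 3.58.1 on voom values or on log2(FPKM + 1) and log2(FPKM + 0.1), a replicate block and each library left out.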

Additional observations from a re-analysis of the deposited data

How the results depend on the processing

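The count of 4 called members was 3 or 4 under all 16 other settings, and 3 to 4 with 1 library left out; CYCD7-1, SMR12 and SMR7 were called in all 16. With the 10 genes left out by the description added, a choice made after seeing the data, it stayed at 4. The count of higher members fell from 2 to 1 with limma on unfiltered log2(FPKM + 1), in the fit with the replicate block, and in 5 of the 6 fits without 1 library (range 1 to 2), each time because CYCB2-1 was lost (adjusted p = 0.0518 with that limma fit and 0.0504 with the block); the cause was not tested. Same-numbered libraries correlated at -0.000211, 0.0585 and 0.102 in their deviations from the group means. Pairs with different numbers ran from -0.154 to 0.0784. With 3 libraries per genotype these values cannot decide whether a number marks a shared batch. Apart from CYCB2-1, the block changed no member call. The log2 fold change of CYCB1-2 changed sign around 0: it was 0.0012 with median-of-ratios scaling, 0.025 with library totals, 0.0015 with DESeq2, 0.0016, 0.0017 and 0.0016 with limma on log2(FPKM + 1), log2(FPKM + 0.1) and unfiltered log2(FPKM + 1), and -0.10 to 0.070 with 1 library left out. That of CYCD3;2 ran from -0.13 to 0.12 with 1 library left out. The count of genes past the threshold ran from 1645 to 2474 and that of other cell cycle genes stayed at 3. On log2(FPKM + 1) the changes of CYCD7-1, SMR12 and SMR7 shrank to -2.09, -1.55 and 1.92. The filter on low counts left 7 members without a test, and 67 of the 68 members had a fit without it.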
